A study of Mus musculus with 7 samples.

Results

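Genes of sterol synthesis, 7 in number, were followed through RNA-seq of the mouse hippocampus: Hmgcs1, Fdft1, Sqle, Lss, Cyp51 and Dhcr7, which encode enzymes of the cholesterol pathway, and Insig1, which encodes a feedback regulator of it. They were chosen by gene name, as 7 of 38924 gene records and 127 of 359565 exon bins (the pieces into which overlapping exons are divided for counting). The libraries were 3 of Ammon's horn from adult mice homozygous for a deletion of Khdrbs3, 1 of dentate gyrus from adult wild-type mice, and 3 of Ammon's horn from adult wild-type mice. All 3 groups share a C57Bl6 background, onto which the Khdrbs3 (T-STAR) null allele was bred over 8 generations, and no mouse was treated. The deletion is labelled by gene alone, with no tissue given to which it would be limited. Titles of the Ammon's horn libraries carry a number each, which the labels do not explain, and nothing says whether a library came from 1 animal or from pooled animals, so the p-values measure only the spread between these libraries, which may be technical.

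Cholesterol is made from acetyl-CoA through mevalonate, isoprenoids, squalene and lanosterol. The brain makes its own, since the blood-brain barrier holds back lipoproteins, and oligodendrocytes and astrocytes are known as its main producers in adult brain. When sterols in the endoplasmic reticulum run low, SCAP carries the transcription factor SREBP2 to the Golgi, where it is cleaved and released to raise transcription of these genes. INSIG1 holds SCAP back when sterols are plentiful, and its own gene is an SREBP target, so the gene is read with the enzymes.

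Because SREBP acts at the promoter, promoters are shown for a gene of the early pathway (Hmgcs1), one of the late pathway that was lower in the dentate gyrus (Cyp51), and one that was not (Lss). The windows hold 250 bases before to 50 bases after the RefSeq start site (GRCm38.p6), 5′ to 3′ on the gene's strand. Capitals mark the sterol regulatory element core TCACNCCAC, the kind of site SREBP binds, and the CCAAT box, the site of NF-Y, each searched on both strands (CCAAT reads ATTGG on the other strand). The marked motifs do not overlap. The windows are chr13:119690101-119690400 (+ strand) for Hmgcs1, chr5:4104648-4104947 (- strand) for Cyp51 and chr10:76531355-76531654 (+ strand) for Lss.
Hmgcs1: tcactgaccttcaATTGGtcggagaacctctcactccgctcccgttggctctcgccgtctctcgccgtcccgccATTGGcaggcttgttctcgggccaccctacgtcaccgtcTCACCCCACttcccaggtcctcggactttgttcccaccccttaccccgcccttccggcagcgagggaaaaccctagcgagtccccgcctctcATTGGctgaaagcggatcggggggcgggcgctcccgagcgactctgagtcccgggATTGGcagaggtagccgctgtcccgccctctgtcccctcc
Cyp51: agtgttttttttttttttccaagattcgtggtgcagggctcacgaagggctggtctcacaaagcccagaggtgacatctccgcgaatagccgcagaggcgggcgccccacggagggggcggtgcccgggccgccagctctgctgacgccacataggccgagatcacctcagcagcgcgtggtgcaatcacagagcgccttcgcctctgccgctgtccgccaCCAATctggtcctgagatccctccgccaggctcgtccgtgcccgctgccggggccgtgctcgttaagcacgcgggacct
Lss: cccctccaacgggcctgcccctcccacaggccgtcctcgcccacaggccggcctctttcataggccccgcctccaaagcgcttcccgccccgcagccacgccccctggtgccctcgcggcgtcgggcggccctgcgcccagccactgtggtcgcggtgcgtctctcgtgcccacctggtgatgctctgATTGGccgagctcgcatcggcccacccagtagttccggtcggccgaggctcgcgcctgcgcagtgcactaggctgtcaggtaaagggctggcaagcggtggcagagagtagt

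Of the 7 genes, 5 matched the RefSeq promoter table by symbol, with 7 windows in all, 3 of them for Dhcr7; Fdft1 and Sqle did not match. The sterol core was found in 1 of the 5 genes, Hmgcs1, at 137 bases before the start site, and in 1.24% of all 32851 promoters. A CCAAT box stood in 5 of the 7 windows, with at least 1 for each of the 5 genes, and in 37.4% of all promoters. In Hmgcs1 it occurred 4 times, and in Cyp51 and Lss once each, at 29 and 62 bases before the start. GGGCGG, the GC box of SP1, was in 6 of the 7 windows, and in 35.7% of all promoters. CACGTG, an E-box, was in 2 of the 7 windows, 1 of Dhcr7 and 1 of Insig1, and in 7.15% of all promoters. These matches describe the letters alone. Sites that depart from these strings were not searched, so a window without a match may still hold such a site.

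Libraries held 50230733 to 67692326 gene counts. The deletion was visible in the second exon bin of Khdrbs3, with 6, 9 and 7 reads in libraries of knockout mice, 506 in the dentate gyrus library, and 808, 1103 and 964 reads in those of wild-type Ammon's horn. The whole-gene level of Khdrbs3 was not lower but higher, at 198.0, 203.1 and 197.0 CPM in the knockout against 142.2, 142.6 and 134.4 CPM in wild type (log2 fold change 0.51, SE 0.05, adjusted p = 0.0025 by edgeR). CPM, a read count scaled to library size by TMM, is the unit of level throughout. Knockout libraries 1 and 3 stood apart in the summed level of 10 choroid plexus markers, at 1140 and 1120 CPM, with 136 CPM in knockout library 2, 424 CPM in the dentate gyrus, and 130 to 308 CPM in wild-type Ammon's horn. The share of mitochondrial genes was 11.1% to 14.1% in knockout libraries, 9.87% in the dentate gyrus library, and 10.4% to 10.9% in libraries of wild-type Ammon's horn. The tissue labels matched their markers: 6 of 6 granule cell markers were higher in the dentate gyrus than in every wild-type Ammon's horn library (685 CPM summed against 132 to 157 CPM), and 6 of 6 CA1 markers were lower (115 CPM against 795 to 814 CPM).

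The first comparison asked whether loss of Khdrbs3, an RNA-binding regulator of splicing, goes with a change in these genes in Ammon's horn. No change was detected: 0 of the 7 genes passed an adjusted p of 0.05 by edgeR's quasi-likelihood test, where 17 of 22830 genes, 0.0745%, passed among all genes tested. This does not show that the levels were equal, and the interval of each difference is given with its gene. Their log2 fold changes lay between -0.15 and 0.12 with a median of 0.006, and the median of all genes was 0.002. At an unadjusted p under 0.05 the count was again 0 of 7, against 8.38% of all genes, and DESeq2 called 0 of 7, against 0.469%. The 7 genes summed to 483.8 ± 19.1 CPM in the knockout and 484.1 ± 10.7 CPM in wild type (SD, n = 3 each).

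Hmgcs1 (ENSMUSG00000093930.1, mm10 chr13:119690462-119708086) encodes cytosolic HMG-CoA synthase, an early enzyme of the mevalonate route. Its level was 204.2, 189.8 and 198.2 CPM in the knockout against 200.1, 183.8 and 206.1 CPM in wild type. The groups overlapped, and the log2 fold change was 0.006 with a 95% interval of -0.13 to 0.14. Its sign turned under 4 of 12 other settings, without a call in any.

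Fdft1 (ENSMUSG00000021273.9, chr14:63145153-63177793) encodes squalene synthase, the first step committed to sterols. It stood at 79.74, 78.08 and 82.60 CPM in the knockout against 82.64, 80.04 and 79.80 CPM in wild type. The groups overlapped over a narrow range, and the interval of the log2 fold change, -0.12 to 0.09, was among the tightest of the 7.

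Sqle (ENSMUSG00000022351.8, chr15:59315077-59331192) encodes squalene epoxidase, a rate-limiting oxygen-dependent step. It lies on the same chromosome as Khdrbs3, 9.6 Mb away. Its levels were 55.17, 53.90 and 60.79 CPM in the knockout against 51.75, 55.95 and 59.85 CPM in wild type. The groups overlapped, and the log2 fold change was 0.02 with an interval of -0.13 to 0.17.

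Lss (ENSMUSG00000033105.6, chr10:76531588-76557138) encodes lanosterol synthase, which closes the sterol rings. It was at 22.31, 22.53 and 24.50 CPM in the knockout against 21.56, 22.51 and 22.82 CPM in wild type, with groups that overlapped. Its log2 fold change was 0.05 with an interval of -0.10 to 0.20.

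Cyp51 (ENSMUSG00000001467.4, chr5:4081145-4104746) encodes the cytochrome P450 that demethylates lanosterol. It was the single member whose groups did not overlap, at 51.82, 50.05 and 52.56 CPM in the knockout against 53.26, 55.77 and 54.44 CPM in wild type. Such a gap occurred in 1 of the 7 genes and in 13.2% of all genes tested. The difference was small, with a log2 fold change of -0.08 (SE 0.05, interval -0.19 to 0.02), and did not pass the test (adjusted p = 0.69 by edgeR).

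Dhcr7 (ENSMUSG00000058454.8, chr7:143823145-143848410) encodes the reductase of the last step to cholesterol, the one deficient in Smith-Lemli-Opitz syndrome. It stood at 27.23, 25.36 and 27.71 CPM in the knockout against 25.89, 31.08 and 32.06 CPM in wild type. The 3 knockout libraries lay below 2 of the 3 wild-type libraries and on either side of the other. The log2 fold change was -0.15 (SE 0.08, interval -0.33 to 0.03, adjusted p = 0.67 by edgeR). It was -0.24 without wild-type library 1 and -0.09 without wild-type library 3. When counts were taken from exon bins alone, it was -0.18 (SE 0.07), with an unadjusted p of 0.020 in the edgeR fit and an adjusted p of 0.59.

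Insig1 (ENSMUSG00000045294.10, chr5:28071363-28078662) had the highest log2 fold change of the 7, 0.12 (SE 0.09, interval -0.07 to 0.31, adjusted p = 0.75 by edgeR). Its levels were 45.35, 44.03 and 55.44 CPM in the knockout against 45.54, 46.39 and 41.06 CPM in wild type. Library 3 alone lay above every wild-type library. Without it the log2 fold change was 0.010. Knockout libraries 1 and 3 were both high in choroid plexus markers (1140 and 1120 CPM), and Insig1 in library 1 lay within the wild-type range. Without library 1 the log2 fold change of Insig1 was 0.17. With choroid plexus markers as a covariate it was 0.03, those of the 7 genes ran from -0.16 to 0.04, and 0 were called. The part of choroid plexus content in the value of Insig1 was not tested.

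**Figure D1:**
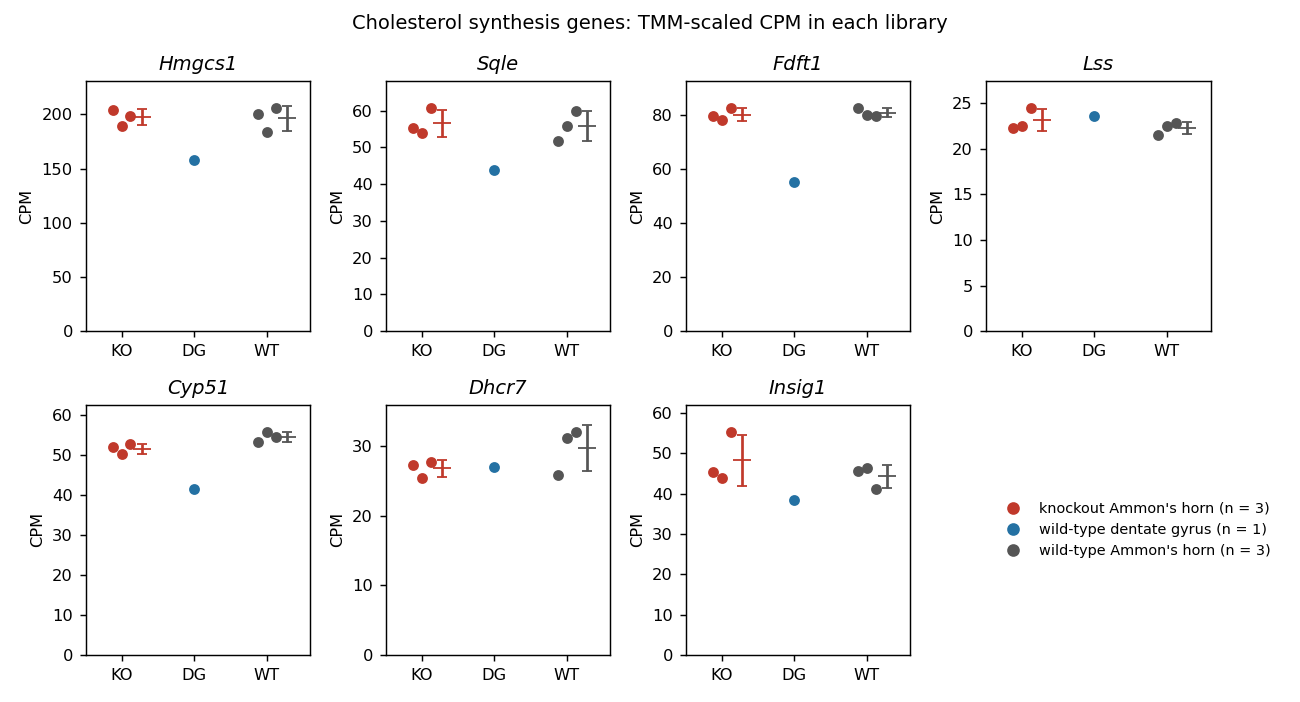
Level of each of the 7 genes (TMM-scaled CPM, linear axes from 0) in knockout Ammon's horn (KO), wild-type dentate gyrus (DG) and wild-type Ammon's horn (WT); each point is 1 library and the bar beside the points is the mean with its SD (n = 3). Knockout and wild-type points overlap for all genes but Cyp51, while the dentate gyrus point lies below all Ammon's horn points for Hmgcs1, Fdft1, Sqle, Cyp51 and Insig1.

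The second comparison set the dentate gyrus, the granule cell field of the hippocampus, against Ammon's horn, the pyramidal cell fields, in wild-type tissue. Hmgcs1, Fdft1, Sqle and Cyp51 were lower in the dentate gyrus library, by log2 fold changes of -0.32 to -0.55, and 0 of the 7 genes were called higher. The 4 calls of 7 compare with 10.9% of 24486 genes called lower and 11.2% called higher in this comparison. As the 7 genes were chosen with earlier results of these data known, this contrast is a description. The dentate gyrus has 1 library, so its spread was taken from the Ammon's horn libraries of both genotypes. The median log2 fold change of the 7 genes was -0.32, and that of all genes tested was -0.01. In bulk tissue, fewer cells of a type and less RNA per cell cannot be told apart.

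Fdft1 was the most reduced, at 55.35 CPM in the dentate gyrus against 82.64, 80.04 and 79.80 CPM in wild-type Ammon's horn. That is 0.685 times the Ammon's horn level (log2 fold change -0.55, SE 0.07, adjusted p = 3.7e-04 by edgeR). Fdft1 overlaps the end of Ctsb, a lysosomal protease gene on the opposite strand, by 767 bases. Ctsb was also lower in the dentate gyrus (354.5 CPM against a mean of 452.6 ± 2.84 CPM, SD, n = 3), and reads in the shared stretch cannot be told apart where strand was not used. From exon bins, the log2 fold change of Fdft1 was -0.58 (SE 0.08, adjusted p = 2.2e-04).

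Cyp51 followed at 41.39 CPM in the dentate gyrus against 53.26, 55.77 and 54.44 CPM in wild-type Ammon's horn. Its log2 fold change was -0.40 (SE 0.07, adjusted p = 0.0027 by edgeR), with the dentate gyrus well below all 3 libraries. Sqle stood at 43.98 CPM in the dentate gyrus against 51.75, 55.95 and 59.85 CPM, and Hmgcs1 at 157.6 CPM against 200.1, 183.8 and 206.1 CPM. Both were below every wild-type Ammon's horn library. Their log2 fold changes were -0.34 for Sqle (SE 0.10, adjusted p = 0.027) and -0.32 for Hmgcs1 (SE 0.08, adjusted p = 0.021). Fitted with the 3 wild-type Ammon's horn libraries alone, the calls of Sqle and Hmgcs1 were lost (adjusted p = 0.054 and 0.058), while Fdft1 and Cyp51 were still called.

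Insig1, Dhcr7 and Lss were not called in the dentate gyrus. Insig1 was at 38.50 CPM in the dentate gyrus against 45.54, 46.39 and 41.06 CPM, below all 3 libraries but with a log2 fold change of -0.20 and an interval of -0.48 to 0.07. Dhcr7 was at 27.02 CPM in the dentate gyrus, within the Ammon's horn range of 25.89 to 32.06 CPM (log2 fold change -0.14, interval -0.40 to 0.13). Lss alone was higher than all 3, at 23.61 CPM in the dentate gyrus against 21.56, 22.51 and 22.82 CPM (log2 fold change 0.08, interval -0.13 to 0.29). These intervals leave room for changes as large as that of Hmgcs1 in Insig1 and Dhcr7, whereas for Lss the lower bound was -0.13. Counted by position, 5 of the 7 genes lay below all 3 Ammon's horn libraries and 1 above; among all genes 35.9% lay below and 35.9% above. Lss overlaps an antisense gene, 4930483K19Rik, by 11268 bases, with 18.73 CPM in the dentate gyrus and 17.62 ± 0.07 CPM in wild-type Ammon's horn (SD, n = 3).

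Ratios of CPM within a library do not depend on the scaling between libraries. Fdft1 stood to Lss, the enzyme that acts after Sqle, as 2.34 to 1 in the dentate gyrus, and as 3.83, 3.56 and 3.50 to 1 in wild-type Ammon's horn. The ratio of Hmgcs1 to Lss was 6.68 in the dentate gyrus against 8.17 to 9.28, and that of Sqle to Lss 1.86 against 2.40 to 2.62. In the knockout, Fdft1 to Lss was 3.57, 3.46 and 3.37, which overlapped wild type. The knockout ratios of Hmgcs1, Sqle, Dhcr7 and Insig1 to Lss overlapped wild type too. Only Cyp51 to Lss did not, at 2.32, 2.22 and 2.15 in the knockout, below the 2.47, 2.48 and 2.39 of wild type. The level of Cyp51 was itself below every wild-type library, a place held by 6.44% of all genes. The ratios of Cyp51, Dhcr7 and Insig1 to Lss were 1.75, 1.14 and 1.63 in the dentate gyrus, against 2.39 to 2.48, 1.20 to 1.40 and 1.80 to 2.11 in wild-type Ammon's horn. All 6 ratios to Lss in the dentate gyrus were below every wild-type Ammon's horn library. Lss, which they share, was the one gene of the 7 with a higher level there, which lowers every ratio. The 6 ratios are thus not separate results. The level of Dhcr7 itself, 27.02 CPM in the dentate gyrus, lay within the wild-type Ammon's horn range of 25.89 to 32.06 CPM. These ratios were described and not tested.

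**Figure D2:**
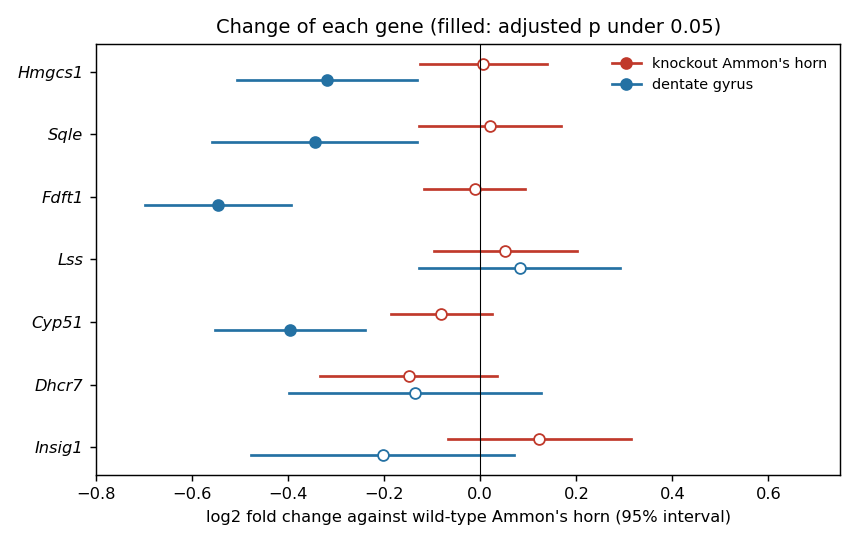
Log2 fold change of each gene against wild-type Ammon's horn with its 95% interval, for the knockout (3 against 3 libraries) and the dentate gyrus (1 against 3); filled points have an adjusted p under 0.05. All knockout intervals include 0, and Hmgcs1, Sqle, Fdft1 and Cyp51 are the filled dentate gyrus points, between -0.32 and -0.55.

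Cell type markers went both ways in the dentate gyrus. CA1 markers summed to 115 CPM there against 795 to 814 CPM in wild-type Ammon's horn. Sums were higher for granule cells (685 CPM against 132 to 157 CPM), CA2 and CA3 cells (430 CPM against 353 to 383 CPM) and choroid plexus (424 CPM against 130 to 308 CPM). Of the 6 CA2 and CA3 markers, 3 lay above every wild-type Ammon's horn library and 1 below. Of the 10 choroid plexus markers, 7 lay above and 1 below. All 10 oligodendrocyte markers were lower in the dentate gyrus than in every wild-type Ammon's horn library (1520 CPM summed against 4350 to 4530 CPM). The 5 markers of oligodendrocyte precursors were lower as well (146 CPM against 207 to 223 CPM). The 8 astrocyte markers summed to 4690 CPM in the dentate gyrus, within the 4080 to 4760 CPM of wild-type Ammon's horn, but 5 of the 8 lay above and 2 below every wild-type library. Slc1a2 made up most of that sum (2650 CPM in the dentate gyrus), and Aldoc was called lower (log2 fold change -0.35, adjusted p = 0.025 by edgeR). The 7 general neuron markers summed to 5340 CPM in the dentate gyrus against 6420 to 6900 CPM. This list was mixed, with 4 of the 7 below every wild-type library and 1 above. Sums in the dentate gyrus were 444 CPM for microglia (487 to 543 CPM in wild-type Ammon's horn), 210 CPM for endothelial and mural cells (246 to 276 CPM) and 158 CPM for meninges (74.9 to 84.7 CPM). No marker of any list was at 0. The part of cell type content, of oligodendrocytes or of any other listed type, in the lower levels of Hmgcs1, Fdft1, Sqle and Cyp51 was not tested.

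The oligodendrocyte markers also had lower sums in the knockout, at 3730 to 3990 CPM against 4350 to 4530 CPM in wild type, with 5 of the 10 below every wild-type library, a place held by 6.44% of all genes. Cldn11, a tight junction gene of myelin, was called lower (67.8, 68.4 and 70.3 CPM in the knockout against 85.1, 85.5 and 90.8 CPM in wild type; log2 fold change -0.34, adjusted p = 0.046 by edgeR), as 1 of 2 genes called lower in all. The 7 sterol genes summed to 463.8 to 501.8 CPM in the same knockout libraries, against 475.6 to 496.1 CPM. Microglia markers summed to 462 to 481 CPM in the knockout and 487 to 543 CPM in wild type. Of these 8 markers, 5 lay below every wild-type library, against the same 6.44% of all genes.

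**Figure D3:**
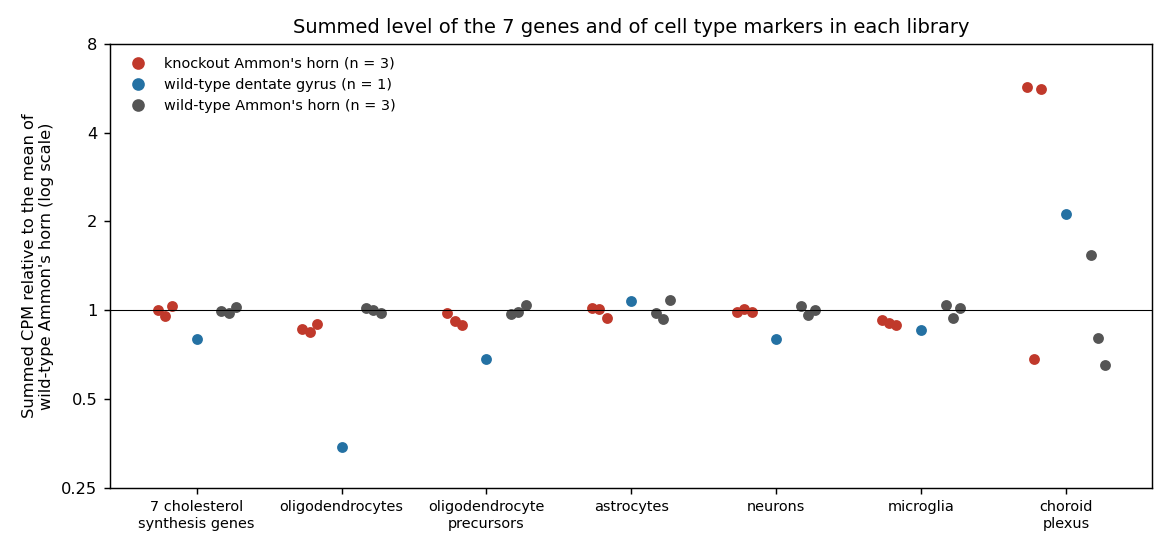
Summed CPM of the 7 genes and of markers of oligodendrocytes, their precursors, astrocytes, neurons, microglia and choroid plexus in each library, divided by the mean of wild-type Ammon's horn (log axis); points are libraries by group, with the knockout on the left, then dentate gyrus, then wild type. Of these 6 lists the oligodendrocyte sum is the lowest in the dentate gyrus relative to wild type (1520 CPM against 4350 to 4530 CPM), and knockout libraries 1 and 3 are high in choroid plexus markers.

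Levels of different genes were compared per kilobase of the principal transcript, from exon bins. In wild-type Ammon's horn the order was Hmgcs1 (67.2 ± 3.26 CPM per kb), Sqle (31.0 ± 2.57), Fdft1 (26.2 ± 0.717), Cyp51 (20.97 ± 0.524), Dhcr7 (18.6 ± 1.49), Insig1 (14.3 ± 1.04) and Lss (5.91 ± 0.281; SD, n = 3 each). Neighbours in this order did not overlap over the 3 libraries at these lengths. The lengths come from GENCODE M21, a release other than that of the bins, and the number of bins matched for Lss and Sqle but not for the other 5 genes. A different length would shift a gene in the order, so that of Sqle and Fdft1 is not settled. The knockout had the same order by means, with Hmgcs1 at 66.6 ± 2.29 and Lss at 5.995 ± 0.243 CPM per kb. There Dhcr7, at 16.24 to 16.56 CPM per kb, lay inside the range of Insig1, 14.39 to 17.66 CPM per kb, so that the order of this pair was not resolved. In the dentate gyrus, Dhcr7 (17.1 CPM per kb) stood above Cyp51 (16.1 CPM per kb) and close to Fdft1 (17.5 CPM per kb), and Hmgcs1 was again highest (54.3 CPM per kb). The ratio of gene count to exon count there was 0.992 for Dhcr7 and 1.15 for Cyp51, so the order of Dhcr7 and Cyp51 is not settled either.

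Counts of the gene table cover the whole gene body with its introns, whereas the bins cover exons. The ratio of gene count to exon count differed between the genes. It was highest in Insig1, at 1.90 to 2.03 in knockout libraries, 2.08 in the dentate gyrus library and 1.94 to 1.99 in wild-type libraries of Ammon's horn. Dhcr7 had the lowest ratio, at 0.941 to 1.02 for knockout, 0.992 for dentate gyrus and 0.941 to 1.02 for wild type. The other genes lay between. Both forms need not count a read in the same way.

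The other genes of the pathway were read from a list of 37. In the knockout 0 of 37 were called by edgeR and 0 by DESeq2, with a median log2 fold change of -0.01 and 17 of the 37 positive. An unadjusted p under 0.05 in edgeR was reached by 1 gene, Nsdhl. Nsdhl, a dehydrogenase of the demethylation steps after Cyp51, had 37.19, 34.03 and 34.28 CPM in the knockout against 29.73, 30.45 and 31.82 CPM in wild type (log2 fold change 0.20, SE 0.06, adjusted p = 0.41). From exon bins the log2 fold change of Nsdhl was -0.020, so its direction depended on the count used. Acat2, a thiolase that joins acetyl-CoA units, had the next highest fold change among the enzymes, at 42.92, 43.98 and 39.76 CPM in the knockout against 41.97, 39.11 and 37.23 CPM in wild type (log2 fold change 0.10, SE 0.06, adjusted p = 0.70). The groups overlapped, and from exon bins its value was -0.021. Ebp, the sterol isomerase, had the lowest value among the enzymes, at -0.18 (SE 0.08, adjusted p = 0.60). Among regulators the values ran highest for Mbtps1 (0.10) and Stard4, a sterol carrier (0.08), and among the efflux and transport genes for Lrp1 (0.13). The value of Lrp1 was 0.30 without wild-type library 3, and 0.05 without wild-type library 1 or 2.

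In the dentate gyrus, 8 of the 37 were called, 4 higher and 4 lower, against 11.2% and 10.9% of all genes. Of the 14 other synthesis enzymes, 8 had negative log2 fold changes and 2 were called lower, with a median of -0.11. They were Sc4mol, the older symbol of the sterol methyl oxidase Msmo1 (56.38 CPM in the dentate gyrus against 65.55, 69.28 and 72.00 CPM; -0.29, SE 0.08, adjusted p = 0.026), and Fdps, the farnesyl diphosphate synthase (35.75 CPM against 41.21, 43.93 and 41.70 CPM; -0.24, SE 0.08, adjusted p = 0.043). The call of Fdps was lost when any 1 of the 6 Ammon's horn libraries was left out (adjusted p = 0.050 to 0.090), without the low-count filter (0.065), with wild-type Ammon's horn alone (0.11) or once choroid plexus markers entered the fit (0.059), and that of Sc4mol in the fit with the 3 wild-type Ammon's horn libraries alone (adjusted p = 0.065). Mvd and Mvk, of the mevalonate steps, had values as low, -0.29 each, with adjusted p of 0.16 and 0.17. Mvd overlaps Gm20388, a record with 1478063 counts in all against 4916 for Mvd. Lbr and Sc5d, which act on later sterols, had the highest values, 0.18 and 0.10, and neither was called.

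Of the 11 genes of regulation and uptake, 3 were called higher in the dentate gyrus and 1 lower, against 11.2% and 10.9% of all genes. The log2 fold change was negative in 8, and the median was -0.19, against -0.01 for all genes. Srebf2, the gene of SREBP2, singled out here after its values were seen, stood at 143.9 CPM in the dentate gyrus against 164.8, 162.9 and 173.6 CPM. It was thus below all 3 libraries, a place held by 35.9% of all genes. Its log2 fold change of -0.22 (SE 0.07) missed the threshold in edgeR (adjusted p = 0.062) and passed it in DESeq2 (adjusted p = 0.035). In the knockout its log2 fold change was -0.01 (adjusted p = 0.97 by edgeR). Mbtps1 and Mbtps2 encode the proteases that cleave SREBP in the Golgi. Mbtps2 stood at 40.07 CPM in the dentate gyrus against 29.60, 27.88 and 28.73 CPM in Ammon's horn of wild-type mice (0.48, SE 0.08, adjusted p = 0.0014). It overlaps Yy2 and Gm6568, which had 2450 counts in all against 12836 for Mbtps2. Mbtps1 stood at 76.05 CPM against 56.66, 61.49 and 62.81 CPM (0.33, SE 0.07, adjusted p = 0.0078). Insig2, the paralog of Insig1, stood at 50.51 CPM in the dentate gyrus against 41.80, 41.37 and 39.98 CPM (0.30, SE 0.07, adjusted p = 0.011). Insig1 and Insig2 thus had opposite signs, but the difference between them was not tested, and from exon bins Insig2 missed the threshold (0.24, adjusted p = 0.053). Mylip, a ubiquitin ligase induced through LXR, fell to 12.95 CPM in the dentate gyrus, against 18.60, 17.74 and 16.27 CPM (-0.44, SE 0.12, adjusted p = 0.029). Without wild-type library 1 or 2 it missed the threshold (adjusted p = 0.053 and 0.051). Scap, Stard4 and Npc2 were not called, at -0.02, -0.19 and -0.32; Npc2 was called without knockout library 2 (adjusted p = 0.034), with wild-type Ammon's horn alone (0.043) and once choroid plexus markers entered the fit (-0.44, adjusted p = 0.021).

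Of the 12 genes of efflux, turnover and transport, Cyp7b1, an oxysterol hydroxylase, rose to 28.74 CPM in the dentate gyrus, against 17.17, 19.22 and 18.60 CPM (log2 fold change 0.65, SE 0.10, adjusted p = 9.5e-04). The median of these 12 genes was 0.13, with 7 positive. Nr1h2, the gene of the oxysterol receptor LXR beta, fell to 18.62 CPM, against 23.68, 24.74 and 24.26 CPM (-0.38, SE 0.09, adjusted p = 0.016). Apoe, the gene of the main apolipoprotein of the brain, stood at 1232 CPM in the dentate gyrus against 1419, 1400 and 1395 CPM. It lay below all 3, as did 35.9% of all genes, and was not called (-0.19, SE 0.10, adjusted p = 0.19). Without knockout library 1 the adjusted p of Apoe was 0.044. The efflux pump gene Abca1 and the receptor gene Lrp1 were not called either, at 0.30 and 0.26. Both were highest within wild-type Ammon's horn in library 3 (37.00 CPM for Abca1 and 343.7 CPM for Lrp1), and without that library both were called higher, at 0.44 and 0.43 (adjusted p = 0.015 and 0.0020).

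**Figure D4:**
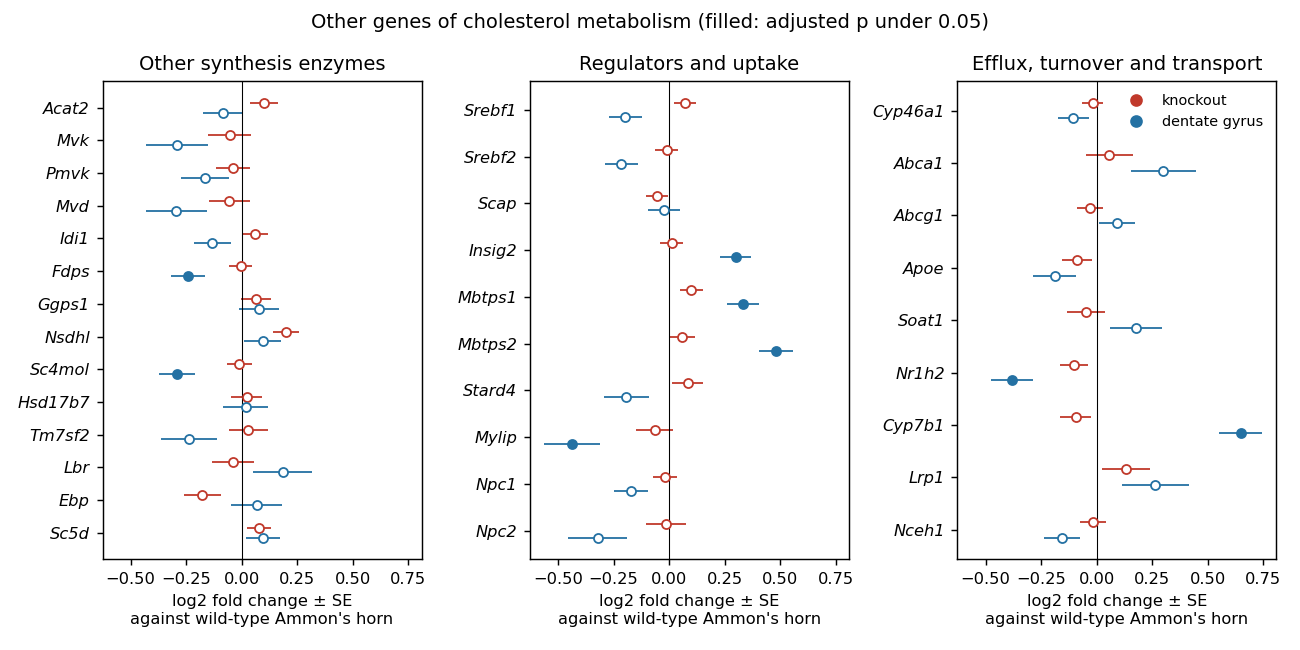
Log2 fold change ± SE against wild-type Ammon's horn of the 33 listed genes with a mean of at least 5 CPM, for knockout and dentate gyrus libraries; filled points have an adjusted p under 0.05. No knockout point is filled, and the 8 filled dentate gyrus points are Fdps, Sc4mol, Mylip and Nr1h2 on the lower side and Insig2, Mbtps1, Mbtps2 and Cyp7b1 on the higher side.

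Exon usage was examined because KHDRBS3 regulates splicing. A bin's usage is its share of the exon reads of its gene, tested against the change of the whole gene with edgeR's diffSpliceDGE. Of the 127 bins of the 7 genes, 98 had reads enough for the knockout comparison and 99 for the dentate gyrus, and 3 bins had no read in any library. In the knockout 0 of 98 were called, where 5 of 166154 bins, 0.00301%, were called in all genes, and limma's diffSplice also called 0 of 98, against 0.00301%. In the dentate gyrus 0 of 99 were called, against 0.213% of all bins, and limma called 0 of 99, against 0.327%. At an unadjusted p under 0.05 there were 2 bins in the knockout, against 1.72% of all bins, and 1 in the dentate gyrus, against 3.89%.

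The bins described are those with the lowest p in their gene. Positions, coding status and transcript counts of bins are those of the GENCODE M21 rebuild, whose bin borders were not checked. Sqle bin 5 (chr15:59321314-59321494, mm10) lies in exons of 3 of 4 annotated transcripts and holds coding sequence. Its share was 6.67%, 6.26% and 6.98% for knockout libraries and 7.47%, 7.65% and 8.02% for wild-type libraries. The groups did not overlap, which was also so for bins 7, 10 and 12 of Sqle. The share of all bins with such a gap is not given here, so the gap does not set bin 5 apart. Its usage log2 fold change was -0.16 (SE 0.08, edgeR unadjusted p = 0.047, adjusted p = 1). Lss bin 15 (chr10:76539785-76539920) lies in exons of 3 of 8 transcripts and holds coding sequence. It had 10, 32 and 15 reads in knockout libraries, where wild-type libraries had 29, 32 and 38. Its usage log2 fold change was -0.52 (SE 0.19, edgeR unadjusted p = 0.0060, adjusted p = 1), and the library with 32 reads lay among the wild-type values. Cyp51 bin 2 took 2.82% of the reads in the dentate gyrus against the 3.87%, 4.03% and 4.01% of Ammon's horn from wild-type mice (-0.34, SE 0.15, edgeR unadjusted p = 0.031, adjusted p = 1). Its share in the knockout ran from 2.73% to 4.73%, which takes in the dentate gyrus value.

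Insig1 bin 1 had a share of 10.7% ± 0.243 (SD, n = 3) for knockout and 9.47% for dentate gyrus libraries. Wild-type Ammon's horn had 11.6%, 11.1% and 13.4%, and the bin was called in neither comparison (adjusted p = 1 by edgeR). The remaining bins with the lowest p in their gene had adjusted p of 1 as well. They were Hmgcs1 bins 6 and 1, Fdft1 bins 8 and 2, Cyp51 bin 7, Dhcr7 bins 2 and 7, Lss bin 33 and Sqle bin 12.

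**Figure D5:**
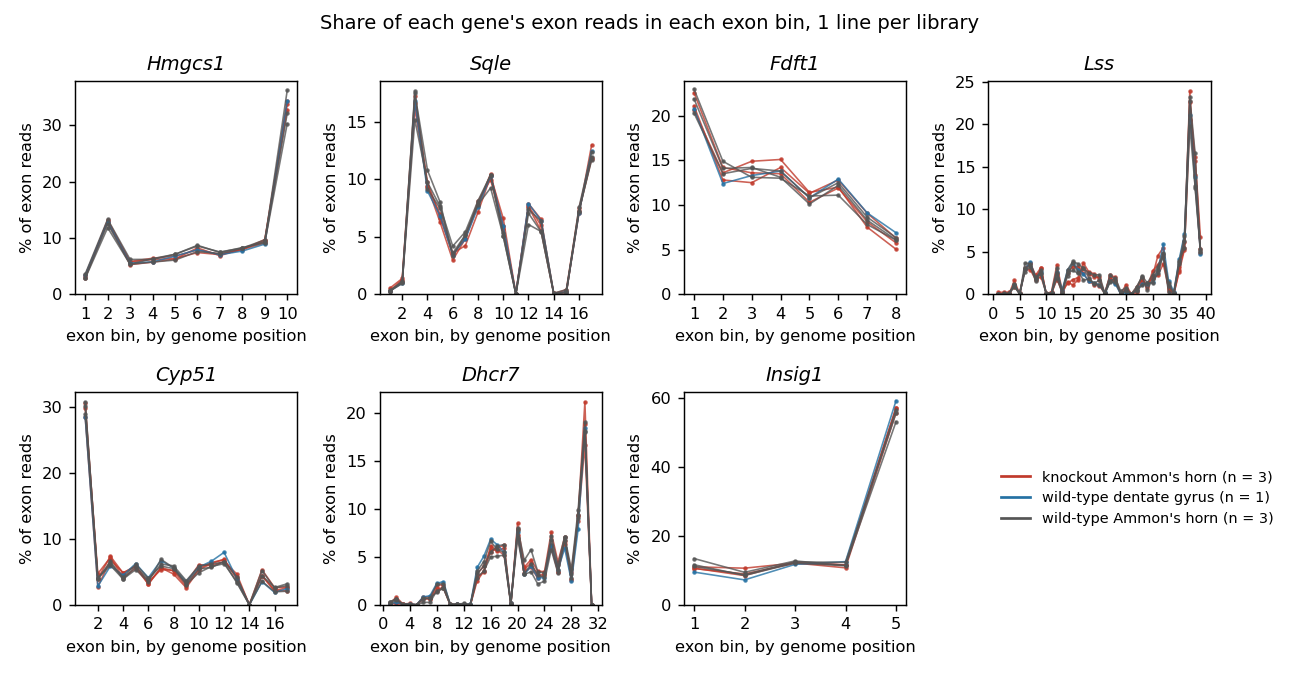
Share of each gene's exon reads in each exon bin (percent, linear axis), with bins numbered by genome position and 1 line per library, coloured by group. The lines lie close together in all 7 genes; Fdft1 and Cyp51 lie on the minus strand, so their 3′ ends are on the left.

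Among the 6 Ammon's horn libraries the 7 genes varied little, with an SD of 0.032 to 0.14 of log2 CPM per gene. Their mean deviation from the wild-type mean was -0.019, -0.068 and 0.069 for knockout libraries, -0.26 for the dentate gyrus, and -0.039, 0.012 and 0.028 for wild-type libraries of Ammon's horn. In the dentate gyrus 1 of the 7 genes, Lss, lay above the wild-type mean. Pairs of the genes correlated between -0.23 and 0.86 over the 6 libraries, with a median of 0.21 and 15 of 21 pairs positive, as a description of points that mix both genotypes. The protein-coding genes whose log2 CPM was most like the mean of the 7 were Phrf1 (Pearson correlation 0.98), Coq4 (0.97), Zkscan17 (0.97), Dynlt1c (0.96) and Rasgef1b (0.96), out of 11890 genes over 6 libraries. Genes of the pathway list stood at both ends of that ranking. Sc4mol ranked at place 7 (0.95) and Mvk at place 22 (0.93), whereas Insig2 ranked at place 11806 (-0.85) and Acat2 at place 11682 (-0.77). The mean they were set against spanned only -0.065 to 0.072, so these likenesses rest on differences of the size of the spread between libraries.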

How the data were processed

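Polyadenylated RNA was sequenced as 7 libraries in 3 groups taken from the labels. The authors deposited raw counts per gene and per DEXSeq exon bin, neither normalised. Their build was mm10 and their tools, per the submitters' processing notes, were bedtools 2.17.0, TopHat2 2.0.8b, DESeq2 1.0.19 and Trim Galore 0.3.5; whether strand was used in counting is not given in the sources used here. Gene counts were tested with edgeR 4.0.16 in R 4.3.3 (quasi-likelihood, TMM, edgeR's low-count filter), with Benjamini-Hochberg adjustment over all genes and calls at 0.05. Knockout fits used the 6 Ammon's horn libraries and dentate gyrus fits all 7. The biological coefficient of variation was 10.6% and 10.8%. Exon usage was tested in bins that had 10 or more reads in 3 or more libraries. Exon-bin counts summed to 29698245 to 39904606 per library. Exon positions are given for Lss and Sqle, whose number of bins and gene ends matched those rebuilt from GENCODE M21. The borders of single bins were not checked against the release used for counting.

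The alternatives were RLE scaling, no filter, DESeq2 1.42.0, exon-bin sums, no mitochondrial genes, a choroid plexus covariate, the dentate gyrus with wild type alone, leaving out each library, limma 3.58.1 and bins of 30 reads. The text names the 7 genes, Khdrbs3, called pathway genes, the 2 highest and 2 lowest of each sub-list at 5 CPM or more, the 5 genes most alike, and each gene's bin with the lowest p. In simulated data, the knockout fits recovered most of the known changes. Those changes were larger than any reported here for the 7 genes or their bins, so the simulation does not speak to changes of that size. The fit with 1 dentate gyrus library was not simulated. The genes and lists were chosen with earlier results of these data known. Results of 3 genes of the pathway list are not reported here, and list counts leave them out.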

Additional observations from a re-analysis of the deposited data

How the results depend on the processing

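In the knockout, 0 of the 7 genes, 0 of the 37 pathway genes and 0 bins of the 7 genes were called under any alternative run. From exon-bin sums not all 37 could be tested. Srebf1, Tm7sf2, Mbtps2 and Nr1h3 had no bins of their own, and Ch25h was left out of the knockout fit. The count over all genes was 17 with edgeR, 107 with DESeq2 (72 higher, 35 lower), 8 from exon-bin sums and 4 without mitochondrial genes, and 11 to 55 when 1 library was left out, with 55 without knockout library 2 and 11 without knockout library 1 or wild-type library 2. Bins called in all genes numbered 5 in the knockout (5 to 8 with 1 library left out, with 8 without knockout library 3 or wild-type library 2). In the dentate gyrus the 4 calls among the 7 genes held under the alternatives run for it but the fit with wild-type Ammon's horn alone, which gave 2. The choroid plexus covariate was added there after seeing the data and kept 4 calls (-0.35 for Hmgcs1, -0.36 for Sqle, -0.57 for Fdft1 and -0.41 for Cyp51). There, bins called over all genes numbered 360, against 214 with 30 reads, 553 with limma and 196 to 512 with 1 library left out, with 196 without wild-type library 1. The cause of these moves was not tested.

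Signs turned only in values that were not called. In the knockout, log2 fold changes turned for Hmgcs1 (-0.014 from exon bins, -0.028 with the choroid plexus covariate), Nsdhl (-0.020 from exon bins), Acat2 (-0.021 from exon bins) and Insig2 (-0.033 from exon bins), and in the dentate gyrus for Nsdhl (-0.31 from exon bins). With 1 library left out, knockout values ran from -0.044 to 0.041 for Hmgcs1, -0.036 to 0.072 for Sqle, -0.036 to 0.0071 for Fdft1, -0.11 to 0.03 for Mvd, -0.022 to 0.20 for Abca1, -0.021 to 0.021 for Fdps, -0.053 to 0.021 for Sc4mol, -0.0088 to 0.025 for Insig2, -0.14 to 0.0066 for Mvk, -0.11 to 0.023 for Lbr and -0.12 to 0.094 for Npc2, and the dentate gyrus value of Scap from -0.064 to 0.0007.

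No paired analysis was possible because the labels give no replicate numbers shared between groups. The dentate gyrus has 1 library, so differences between dentate gyrus samples could not be measured.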
